A study of Mus musculus with 12 samples.

Results

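The measurement described here is the difference of a plasmid effect between 2 sorted populations of cultured mouse muscle stem cells. For each gene, the change between libraries labelled SIX2 and libraries labelled control was taken in GFP-positive and in GFP-negative cells, and the second change was subtracted from the first. A positive difference therefore means that the change with the SIX2 label was more upward, or less downward, among GFP-positive libraries. Genes were included when at least 3 of the 12 libraries held a value of 10 or more, which left 14580 of 23586 genes.

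All 12 libraries came from muscle stem cells of genotype Pax3nLacZ-IRES-GFP, an allele in which GFP is made from the Pax3 locus through an internal ribosome entry site. Cells were sorted by flow cytometry as GFP-positive or GFP-negative, grown in medium with 20% serum and 4 ng/mL of basic FGF, and transfected with 2 µg of plasmid, either pCR3-Six2, which carries the mouse Six2 coding DNA, or the empty pCR3 plasmid. The 4 groups were GFP-positive with control plasmid, GFP-positive with SIX2 plasmid, GFP-negative with control plasmid and GFP-negative with SIX2 plasmid, with 3 libraries each. RNA came from at least 50000 cells per library. The control groups were therefore transfected and carried the reporter allele as well. Separate animals or cultures are not named for the libraries of any group, so p-values reflect the spread between libraries, which may be technical. The age of the animals is not given in the sources used here. In bulk cultures of this kind, fewer cells of a type and less RNA per cell cannot be told apart.

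SIX2 is a homeodomain protein best known for keeping kidney progenitors undifferentiated, and related homeoproteins of its family act upstream of the myogenic regulatory factors in muscle precursors. PAX3, a paired-box factor, specifies embryonic muscle progenitors and stays active in part of the adult muscle stem cells of some muscles. Proliferating myoblasts express Myf5 and Myod1, and Myog comes on when they commit to fusing into myotubes. The question put to the data by this comparison is whether the 2 sorted populations responded alike to the plasmid.

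Depth differed between the groups: the GFP-positive SIX2 libraries held 12632428 to 15492340 reads, GFP-negative control library 1 held 12438885, and the other 8 held at least 28217306. Neither Six2 nor Pax3 checked the labels. Six2 read 4.28, 15.9 and 24.4 normalized counts with the control and 22.8, 23.7 and 19.2 with the SIX2 plasmid in GFP-negative cells. In GFP-positive cells Six2 read 5.35, 13.3 and 3.37 with the control and 28.6, 23.4 and 6.51 with the SIX2 plasmid. The control and SIX2 ranges of Six2 overlapped in both populations, so the groups are named by their labels throughout. Pax3 was at 71.4 ± 2.79 (SD, n = 3) in GFP-negative and 72.2 ± 19 in GFP-positive control libraries. All 10 muscle stem cell and myoblast markers passed the filter, and their summed level was 432749 to 441377 normalized counts in GFP-negative control, 315972 to 354975 in GFP-negative SIX2, 423606 to 442395 in GFP-positive control and 379792 to 414471 in the GFP-positive SIX2 libraries. The members went both ways with the SIX2 label at an adjusted p under 0.05 in limma-trend. Among GFP-negative libraries 4 rose and 5 fell, where 13.6% and 14.3% of all genes did. Among GFP-positive libraries 4 rose and 2 fell, where 12.1% and 11.2% of all genes did. The sum therefore does not stand for each member. The part of this shift of the sum in the results was not tested. Markers of endothelial cells, fibro-adipogenic progenitors and leukocytes summed to at most 166 in any library, those of tendon to between 417 and 704, and those of pericytes and smooth muscle to between 1533 and 2167. The Schwann and neural list summed to 38687 to 42198 in GFP-negative control, 31772 to 35014 in GFP-negative SIX2, 44492 to 46557 in GFP-positive control and 33638 to 35891 in GFP-positive SIX2 libraries, so that control and SIX2 libraries did not overlap in either population. Its sum was mostly Ncam1, an adhesion molecule that myoblasts also make, with group means from 33393 to 44955. The part of these markers in the results was not tested.

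No gene had a difference between the populations that passed the threshold, an adjusted p under 0.05 in limma-trend with Benjamini-Hochberg adjustment (0 of 14580, 0%), and the smallest adjusted p was 0.0751. The edgeR quasi-likelihood test on the recovered reads also called 0 genes, and DESeq2 called 558, 341 with a positive and 217 with a negative difference. DESeq2 gave no adjusted p for 3960 of the 14580 genes, so its adjustment ran over fewer genes than that of the other 2 tests. At an unadjusted p under 0.05, limma-trend gave 1279 positive differences (8.77% of the genes) and 1158 negative ones (7.94%), 2437 in all, and edgeR gave 2394. An adjusted p under 0.1 was reached by 197 genes. The count of 0 held with 10 of the 12 libraries left out in turn, but was 171 without GFP-positive control library 3 and 56 without GFP-positive SIX2 library 3.

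The differences were centred near 0 on the log2 scale, with a median of 0.01, quartiles at -0.24 and 0.25 and the outer percentiles at -2.13 and 1.79. Of the tested genes, 1301 differed by more than 1 on this scale, a 2-fold difference, and 502 of these also had an unadjusted p under 0.05. Conversely, the 95% interval of the difference lay wholly within 2-fold for 8978 genes, 61.6% of those tested. Over all tested genes the interval reached a median of 0.48 to either side. For 35 genes, Odc1, Bri3, Slain2 and mt-Atp8 among them, it lay wholly beyond 2-fold, and for the rest a 2-fold difference in at least 1 direction was inside it. On its own, the SIX2 label raised 1985 genes (13.6%) and lowered 2090 (14.3%) in GFP-negative libraries, and raised 1760 (12.1%) and lowered 1634 (11.2%) in GFP-positive libraries. Of the genes called in GFP-negative libraries but not in GFP-positive ones, 953 of 2063 had an unadjusted p under 0.05 for the difference itself. The same held for 571 of the 1382 genes called in GFP-positive libraries only. Over all tested genes the count was 2437 of 14580. Both sets were selected by the changes that make up the difference, so a higher share than this was built in.

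**Figure D1:**
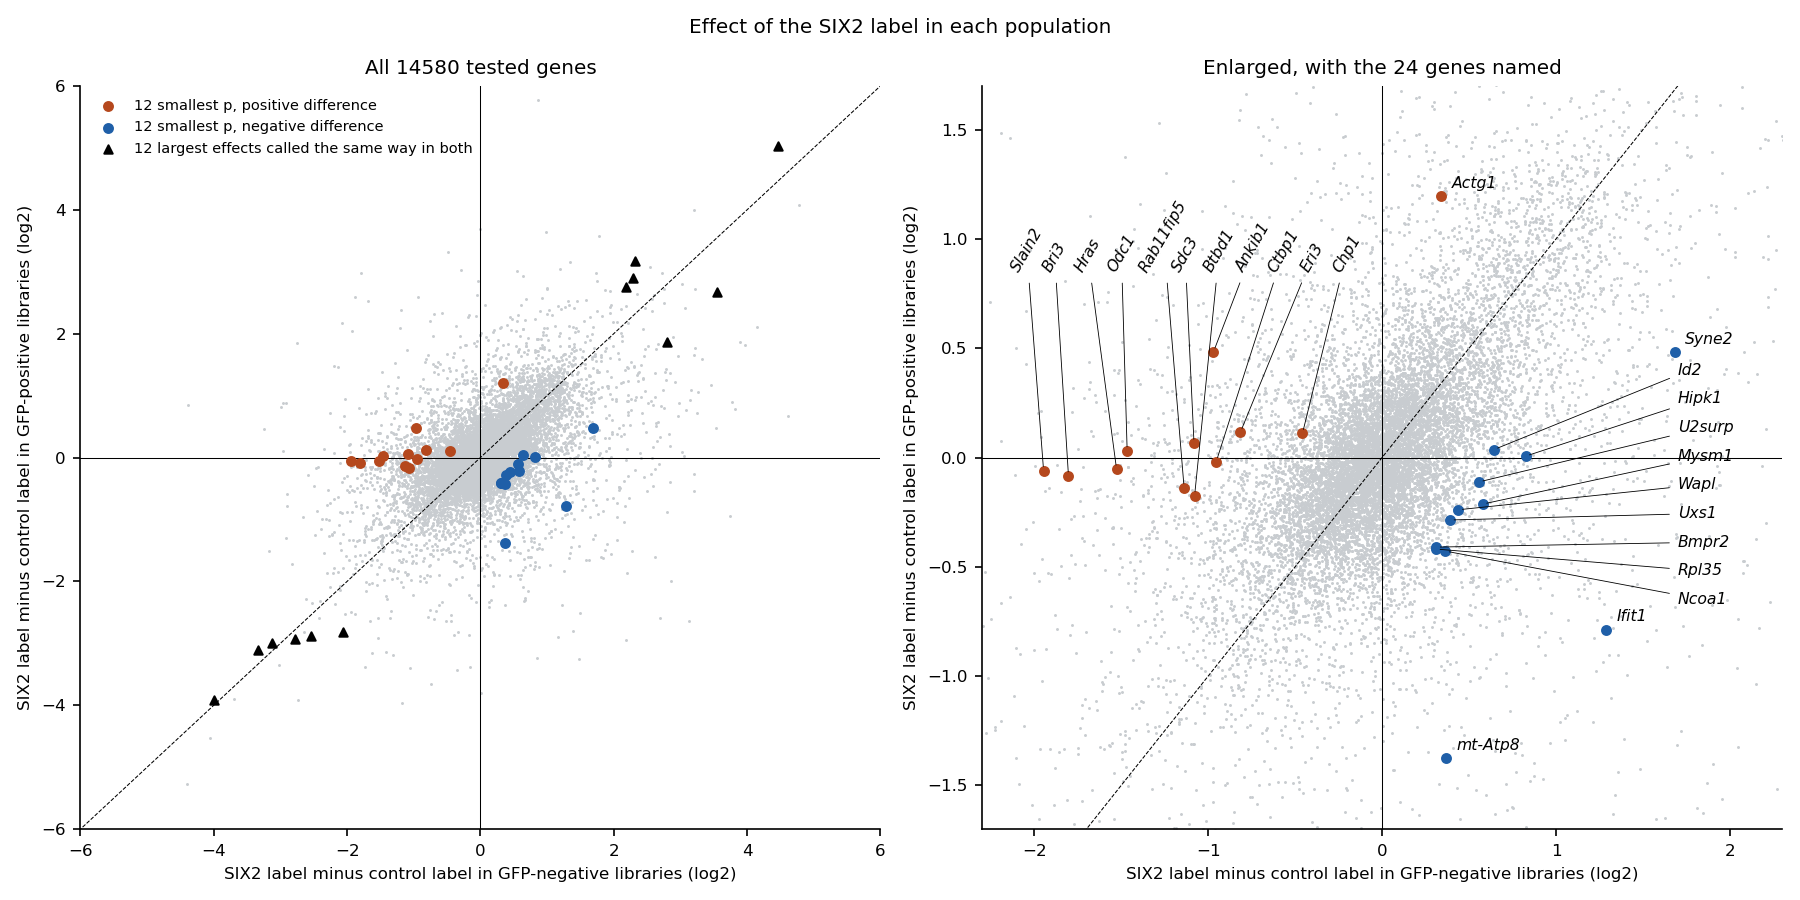
Each point is a gene, placed by the log2 change with the SIX2 label in GFP-negative (horizontal) and GFP-positive libraries (vertical), with the dashed line marking equal changes. The panel on the left shows all 14580 genes and the one on the right enlarges the centre, where the 12 positive differences with the smallest p (brown) lie left of the line, most of them near 0 on the vertical axis, and the 12 negative ones (blue) right of it.

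The 12 named genes with the smallest p among positive differences were led by Odc1 (ornithine decarboxylase, the rate-limiting enzyme of polyamine synthesis), at 12:17544794-17551505 on the plus strand of GRCm38. Odc1 read 3284, 2839 and 3226 normalized counts in the GFP-negative control libraries and 1002, 1082 and 1314 in the GFP-negative SIX2 libraries. In GFP-positive cells it read 1001, 1118 and 1419 with the control and 1459, 1157 and 1001 with the SIX2 plasmid. The 3 GFP-negative control libraries stood above the other 9, which overlapped. Odc1 fell by 1.47 ± 0.15 (SE) on the log2 scale with the SIX2 label in GFP-negative libraries (adjusted p = 1.98e-05, limma-trend), and its change in GFP-positive libraries was 0.03 ± 0.15 (adjusted p = 0.911). The difference was 1.50 ± 0.21 with a 95% interval from 1.04 to 1.96 and an adjusted p of 0.0751 in limma-trend.

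A similar layout was seen for Btbd1 (a BTB-domain adaptor of cullin ubiquitin ligases). It read 2663, 2622 and 2825 in GFP-negative control and 1322, 1277 and 1241 in GFP-negative SIX2 libraries. In GFP-positive cells, Btbd1 read 1480, 1757 and 1864 with the control and 1677, 1489 and 1350 with the SIX2 plasmid. Its GFP-negative control libraries were the highest and its GFP-negative SIX2 libraries the lowest of the 12. The difference was 0.90 ± 0.14. Hras, a small GTPase that carries growth factor signals to the MAP kinases, had 728 ± 174 (SD, n = 3) in GFP-negative control, 248 ± 17.9 in GFP-negative SIX2, 329 ± 65 in GFP-positive control and 315 ± 47.7 in GFP-positive SIX2 libraries. Its fall in GFP-negative libraries was 1.53 on the log2 scale (adjusted p = 5.94e-05, limma-trend), and its difference was 1.47 ± 0.26. The lowest GFP-negative control library of Hras (583) lay above the highest of the other 9 (399).

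**Figure D2:**
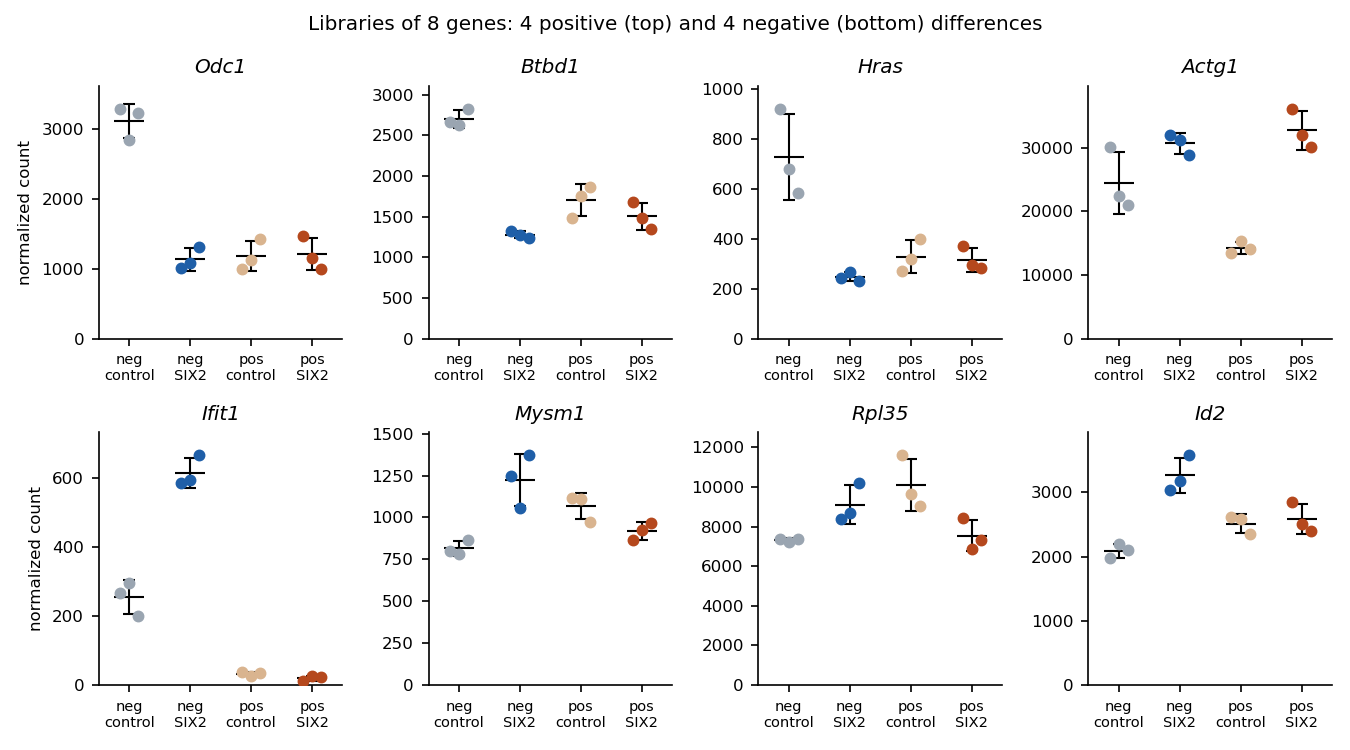
Normalized counts of 4 genes with a positive difference (top) and 4 with a negative one (bottom) are plotted per library, with the mean (line) and SD (bar) of each group of 3. Odc1, Btbd1 and Hras were highest in the GFP-negative control libraries, Actg1 was lowest in the GFP-positive control libraries, and Ifit1 was highest in the GFP-negative SIX2 libraries.

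Slain2, a microtubule plus-end protein, had the widest difference of these 12 genes, 1.89 ± 0.34. It read 4299, 3860 and 4963 in the GFP-negative control libraries, against 962, 1120 and 1332 in GFP-negative SIX2 libraries. The GFP-positive libraries of Slain2 ranged from 889 to 1545 with the control and from 739 to 1524 with the SIX2 plasmid. Only its GFP-negative control libraries were set apart from the rest. The transcripts Gm10135 and Gm9870 overlap Slain2 on the opposite strand, and the library protocol does not mark strand, so their reads cannot be told apart.

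The heparan sulfate proteoglycan syndecan-3 (Sdc3), present on muscle stem cells, fell by 1.08 in GFP-negative libraries and had a difference of 1.15 ± 0.21. Rab11fip5, an effector of the recycling GTPase RAB11, had 1.00 ± 0.17, and Ankib1, a ubiquitin ligase of the RING-between-RING class, 1.45 ± 0.25. The corepressor Ctbp1 had 0.93 ± 0.17, the exoribonuclease family member Eri3 0.93 ± 0.16, Chp1, a calcium-binding partner of sodium-proton exchangers, 0.57 ± 0.10, and Bri3 1.72 ± 0.27. Bri3 overlaps 2900089D17Rik and Baiap2l1, and Sdc3 overlaps Gm12970 and Gm26716, on the opposite strand. In 11 of the 12 genes the GFP-negative control libraries had the highest mean. In GFP-positive libraries, Actg1 was the 1 gene of the 12 whose change with the SIX2 label passed the threshold.

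Actg1, which encodes the cytoplasmic actin gamma, was the exception in layout. It read 13397, 15285 and 14148 in the GFP-positive control libraries and 36092, 32044 and 30124 in the GFP-positive SIX2 libraries. In GFP-negative cells the control libraries read 30050, 22362 and 21046, and the SIX2 libraries 31932, 31244 and 28817. The GFP-positive control libraries of Actg1 lay below the other 9. Actg1 rose by 1.20 ± 0.11 in GFP-positive libraries (adjusted p = 9.9e-06, limma-trend) and by 0.34 ± 0.11 in GFP-negative libraries (adjusted p = 0.0353), with a difference of 0.85 ± 0.16.

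The promoters of these genes, taken from RefSeq's table for GRCm38.p6, held a median of 31 CpG dinucleotides. This was near the 28 of the 12 genes with a negative difference described next, while all promoters of the table, those of genes not tested included, had a median of 7. Over the 11 of 12 genes found there, the window from 250 bases before to 50 bases after the start site had a median GC content of 71.2%, against 52.7% over all 32851 promoters of the table and 64.2% for the 12 genes with a negative difference. The Odc1 window (chr12:17544623-17544922, plus strand) holds 42 CpG dinucleotides and the Slain2 window (chr5:72914112-72914411, plus strand) 32, and both are printed with every CpG in capitals to show this density.
Odc1: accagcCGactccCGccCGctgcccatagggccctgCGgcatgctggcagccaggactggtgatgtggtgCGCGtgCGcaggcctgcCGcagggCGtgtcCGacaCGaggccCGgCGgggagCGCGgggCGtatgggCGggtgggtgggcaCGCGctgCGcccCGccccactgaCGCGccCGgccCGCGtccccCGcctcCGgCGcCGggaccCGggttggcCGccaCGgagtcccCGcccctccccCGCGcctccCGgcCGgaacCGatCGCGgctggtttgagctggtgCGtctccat
Slain2: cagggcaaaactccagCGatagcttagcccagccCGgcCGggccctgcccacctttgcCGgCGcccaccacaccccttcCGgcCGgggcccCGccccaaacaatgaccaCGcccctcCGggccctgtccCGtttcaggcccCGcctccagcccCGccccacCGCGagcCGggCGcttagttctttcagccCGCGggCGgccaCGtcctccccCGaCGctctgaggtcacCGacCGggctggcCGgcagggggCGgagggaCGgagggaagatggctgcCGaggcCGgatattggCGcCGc

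Among negative differences, the interferon-induced gene Ifit1, whose protein binds viral RNA lacking a proper cap, had the widest of the 12 with the smallest p, -2.08 ± 0.40 with a 95% interval from -2.93 to -1.22. Ifit1 read 266, 297 and 200 normalized counts in GFP-negative control and 585, 594 and 665 in GFP-negative SIX2 libraries, against 36.7, 27.1 and 34.6 in GFP-positive control and 10.7, 25.3 and 22.8 in GFP-positive SIX2 libraries. None of the 4 groups overlapped another. Ifit1 thus rose by 1.29 ± 0.28 with the SIX2 label in GFP-negative libraries (adjusted p = 0.00399, limma-trend), while its change of -0.79 ± 0.28 in GFP-positive libraries did not pass (adjusted p = 0.0585).

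Interferon-stimulated genes are switched on through the ISRE, an element bound by the STAT and IRF factors, of which GAAANNGAAA is a core form. This motif, searched on both strands, was present in 3.44% of all promoters in the table (1131 of 32851) and in 40.9% of the promoters of the 36 tested interferon genes that were found there (18 of 44). Counted by gene, 18 of these 36 held it. Of the 6 interferon genes with a negative difference at an unadjusted p under 0.05 that were found, 3 held it, namely Ifit1, Ifit3b and Ifih1. By promoter these were 3 of 7 (42.9%), so the share was near that of the whole interferon list in either unit. The windows of Ifit1 (chr19:34640639-34640938, plus strand) and Ifih1 (chr2:62646206-62646505, minus strand) are printed with each match in capitals. In Ifit1 the motif appears 2 times, on the opposite strand of the gene, and in Ifih1 1 time, on the gene's strand and just after the start site.
Ifit1: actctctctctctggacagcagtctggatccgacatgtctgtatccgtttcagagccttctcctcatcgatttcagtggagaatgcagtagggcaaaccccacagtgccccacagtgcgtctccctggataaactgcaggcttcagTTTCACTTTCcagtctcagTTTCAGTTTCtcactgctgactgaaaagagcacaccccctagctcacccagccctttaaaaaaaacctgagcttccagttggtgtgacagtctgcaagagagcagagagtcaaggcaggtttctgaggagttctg
Ifih1: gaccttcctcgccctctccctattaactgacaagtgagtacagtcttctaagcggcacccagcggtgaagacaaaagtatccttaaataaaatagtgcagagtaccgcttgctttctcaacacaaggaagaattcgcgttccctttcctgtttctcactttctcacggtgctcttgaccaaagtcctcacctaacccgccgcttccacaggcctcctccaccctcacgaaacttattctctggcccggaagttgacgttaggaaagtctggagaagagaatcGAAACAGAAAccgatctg

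The interferon response list held 44 tested genes of 50 in the table. At an unadjusted p under 0.05, 8 of them (18.2%) had a negative and 0 a positive difference, against 7.94% and 8.77% of all genes. The list's median difference was -0.22, against 0.01 for all genes, and its median change was 0.63 among GFP-negative and 0.23 among GFP-positive libraries. Without GFP-negative SIX2 library 3 the negative count was 5. Over 25 alternatives the median difference stayed between -0.31 and -0.06. With the SIX2 label, 15 members rose and 0 fell among GFP-negative libraries, against 8 and 1 among GFP-positive ones. Of all genes, 13.6% rose and 14.3% fell among GFP-negative libraries, against 12.1% and 11.2% among GFP-positive ones. The 8 members, named here after their values were seen, were Ifit1, Ifit3b, Cmpk2, Ifi27, Irf9, Ifih1, Parp14 and Ifi44.

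Ifih1, the cytoplasmic sensor of double-stranded RNA also called MDA5, averaged 400 and 904 normalized counts in GFP-negative control and SIX2 libraries, but 40.1 and 27.2 in GFP-positive ones. Its difference was -1.75 ± 0.59. The interferon-inducible nucleotide kinase Cmpk2 averaged 22.9 and 77.7 in GFP-negative and 7.65 and 3.58 in GFP-positive libraries, with a difference of -3.01 ± 0.88. Irf9, the DNA-binding subunit of the interferon-activated complex ISGF3, rose by 1.08 in GFP-negative libraries and was at 60.6 and 63.4 in GFP-positive control and SIX2 libraries, a difference of -1.04 ± 0.35. Ifi27, an abundant member, rose in both populations, by 0.78 and 0.38, with a difference of -0.40 ± 0.13. Ifit3b stayed at low levels, with group means between 1.73 and 28.0. The adjusted p of the difference lay between 0.0751 and 0.27 for these 8 genes (limma-trend).

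Among 16 tested genes of MHC class I antigen presentation, 4 (25%) had a negative and 1 (6.25%) a positive difference at an unadjusted p under 0.05, beside 7.94% and 8.77% of all genes. With 1 library left out the negative count lay between 1, without GFP-positive SIX2 library 1, and 6, without GFP-negative SIX2 library 1. The positive one was H2-K1, a classical class I heavy chain, which rose by 0.35 in GFP-positive libraries and read 1843 and 1756 in GFP-negative, and 1241 and 1585 in GFP-positive libraries. Tapbp, the peptide-loading chaperone tapasin, fell in GFP-positive libraries by 0.54 and had a difference of -0.48 ± 0.15. H2-K1 is a member of a family of closely similar genes, and reads could be split among them.

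The inflammatory and NF-kB list went the other way. Of its 17 tested genes, 5 had a positive and 0 a negative difference at an unadjusted p under 0.05, and the median difference was 0.43. The positive share was 29.4%, against 8.77% of all genes, and the count lay between 4 and 6 with 1 library left out. With at least 50 counts required in at least 3 libraries, the count was 2 among 11 genes. Nfkb2, the precursor of the NF-kB subunit p52, fell by 0.71 in GFP-negative libraries (1336 to 818) and read 1150 and 1006 in GFP-positive libraries, a difference of 0.51 ± 0.16. Rela, Bcl3 and Traf1 also had positive values, 0.43, 2.22 and 3.02, of which Bcl3 and Traf1 stayed below 25 normalized counts in every group mean. The remaining member, Il1rl1, was at 0 in the GFP-positive control libraries and averaged between 9.27 and 10.0 in the other groups. Rela and Bcl3 were named after their values were seen.

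The mitochondrially encoded mt-Atp8, a small subunit of the ATP synthase, read 713, 779 and 785 in GFP-negative control, 724, 887 and 1464 in GFP-negative SIX2, 1991, 1413 and 1431 in GFP-positive control and 672, 487 and 703 in GFP-positive SIX2 libraries. It fell by 1.37 ± 0.22 in GFP-positive libraries (adjusted p = 0.00058, limma-trend), where its groups did not overlap, and its difference was -1.74 ± 0.31. Its reading frame overlaps that of mt-Atp6 on the same strand, so the division of reads between them is uncertain. Of the 15 mitochondrially encoded genes, 3 (20%) had a negative and 2 (13.3%) a positive difference at an unadjusted p under 0.05. The shares of all genes were 7.94% and 8.77%, and the sign of the list's median (-0.11) turned in 7 of 25 alternatives. Without GFP-positive control library 3 the counts were 2 negative and 5 positive.

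Mysm1, a deubiquitinase of histone H2A, read 799, 779 and 867 in GFP-negative control and 1244, 1057 and 1370 in GFP-negative SIX2 libraries, and 1116, 1110 and 975 in GFP-positive control and 865, 928 and 967 in the GFP-positive SIX2 libraries. The SIX2 libraries lay above the controls in GFP-negative cells and below them in GFP-positive cells. The rise in GFP-negative libraries, 0.58 ± 0.10, passed the test (adjusted p = 0.000959, limma-trend), and the change of -0.21 in GFP-positive libraries did not. The difference was -0.79 ± 0.14.

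Id2, an inhibitor of the basic helix-loop-helix factors that include MYOD1, rose by 0.64 ± 0.08 in GFP-negative libraries, from 1971, 2190 and 2101 to 3044, 3172 and 3575. In GFP-positive libraries it read 2611, 2582 and 2349 with the control and 2848, 2504 and 2395 with the SIX2 plasmid. Its GFP-negative SIX2 libraries were the highest and its GFP-negative control libraries the lowest of the 12. The difference was -0.61 ± 0.12. Id1, of the same family, did not pass in GFP-negative libraries (0.13) and fell by 0.35 in GFP-positive libraries, with a difference of -0.47 ± 0.11.

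Syne2, which encodes the nuclear envelope protein nesprin-2, rose in GFP-negative libraries by 1.68 ± 0.17 from 98.6 ± 11.5 to 318 ± 20.5 (SD, n = 3), against 153 ± 35.7 and 211 ± 2.4 in GFP-positive libraries. Its difference was -1.20 ± 0.24. The cohesin release factor Wapl (-0.68 ± 0.14), the splicing factor U2surp (-0.67 ± 0.14) and the nuclear kinase Hipk1 (-0.82 ± 0.18) each rose in GFP-negative libraries and did not pass in GFP-positive ones. In 10 of the 12 genes with a negative difference, the GFP-negative control libraries had the lowest mean. All 24 genes were called by DESeq2 and by limma with library weights, and edgeR called 0. Without GFP-positive SIX2 library 3, 12 of the positive and 6 of the negative ones were called. With the trend on the highest-GC window of each transcript removed, these counts were 3 and 0. The 24 genes were chosen by their p in the same libraries, so these calls are not independent support.

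Calls in opposite directions, each past the threshold in its own population, were made for 10 genes, 3 of which are unnamed transcripts. Of the 7 named genes, 5 rose in GFP-negative and fell in GFP-positive libraries. Bmpr2, the type II receptor of bone morphogenetic proteins, read 1255, 1537 and 1434 in GFP-negative control and 1734, 1735 and 1758 in GFP-negative SIX2 libraries, and 1782, 2019 and 1859 in GFP-positive control and 1183, 1514 and 1592 in the GFP-positive SIX2 libraries. The control and SIX2 libraries of Bmpr2 did not overlap in either population. Its changes were 0.31 ± 0.11 (adjusted p = 0.0455, limma-trend) and -0.41 ± 0.11 (adjusted p = 0.0142).

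The nuclear receptor coactivator Ncoa1 changed by 0.36 and -0.43 in GFP-negative and GFP-positive libraries, a difference of -0.79 ± 0.17. Uxs1, the Golgi enzyme that makes the UDP-xylose with which proteoglycan chains begin, changed by 0.39 and -0.29, from 594 ± 46.3 to 777 ± 10.9 in GFP-negative libraries and from 796 ± 53 to 652 ± 25 in GFP-positive libraries (SD, n = 3). The ribosomal protein gene Rpl35 changed by 0.31 and -0.42, and overlaps Arpc5l and Wdr38 on the opposite strand. The gene Rc3h1 encodes roquin-1, which marks messenger RNAs for decay, and changed by 0.29 and -0.33.

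The reverse order, a fall in GFP-negative and a rise in GFP-positive libraries, was called for Rpsa and Pskh1. Rpsa, another ribosomal protein gene, read 18563, 14386 and 13539 in GFP-negative control and 13288, 12247 and 11348 in GFP-negative SIX2 libraries. In GFP-positive cells it read 10197, 10143 and 11400 with the control and 15468, 13079 and 14709 with the SIX2 plasmid. Its groups did not overlap within either population, and the changes were -0.32 ± 0.11 and 0.45 ± 0.11. The protein kinase gene Pskh1 changed by -0.46 and 0.33. The count of 10 moved between 4 and 26 when 1 library was left out, and the adjusted p of the difference itself lay between 0.0751 and 0.0988 for the 7 named genes (limma-trend).

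Far more genes were called in the same direction, 1082 higher and 920 lower in both populations. For 1748 of these 2002 genes the interval of the difference lay within 2-fold, and 223 had an unadjusted p under 0.05 for the difference. Over all 14580 tested genes these counts were 8978 and 2437. The 2002 genes were selected by the changes that make up the difference, so small differences with narrow intervals were favoured in advance. The median size of their difference was 0.14, beside a median size of 0.65 for the mean of both changes. Gdf5, a ligand of the BMP family that overlaps Gm15557 on the opposite strand, fell by 3.13 ± 0.20 among GFP-negative and 3.00 ± 0.20 among GFP-positive libraries. Its control libraries read 1244, 1032 and 1191 and 1092, 1026 and 1126, and its SIX2 libraries 173, 142 and 91.4 and 111, 142 and 155, in the same order of populations. The levels of the populations overlapped under either plasmid label, and the difference of 0.13 had a 95% interval from -0.47 to 0.73.

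The collagen gene Col1a1 rose by 2.19 ± 0.28 and 2.75 ± 0.28, with a difference of 0.56 and an interval from -0.30 to 1.43. Pacsin1, a membrane-bending protein of endocytosis, fell by 2.53 in GFP-negative and fell by 2.88 in GFP-positive libraries, with an interval from -1.10 to 0.40. Cavin2, a coat protein of caveolae, rose from 146, 148 and 134 to 786, 1168 and 1088 in GFP-negative libraries and from 189, 369 and 236 to 1122, 996 and 731 in GFP-positive ones. Its rise of 2.80 ± 0.23 exceeded that of 1.87 ± 0.23 by 0.93, with an interval of the difference from -1.62 to -0.24 and an adjusted p of 0.181 (limma-trend).

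Pax3 itself fell by 2.06 ± 0.41 among GFP-negative and 2.82 ± 0.41 among GFP-positive libraries, from means of 71.4 and 72.2 to 16.5 and 10.4. The difference of -0.77 had an interval from -2.01 to 0.48, which includes both no difference and a 4-fold one. The other strongest changes rested on low counts and gave wide intervals. They were rises of the homeobox gene Alx4, Prr9, Peli2 and the sphingomyelinase gene Smpd3, with intervals from -1.52 to 2.67, -0.10 to 1.83, -3.58 to 1.82 and -1.54 to 2.77. Among falls, the intervals were -1.68 to 1.84 for the nuclear receptor gene Nr2e3, -1.15 to 1.62 for Clip4 and -1.41 to 1.12 for Prr32. Smpd3 overlaps Prmt7 on the opposite strand.

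**Figure D3:**
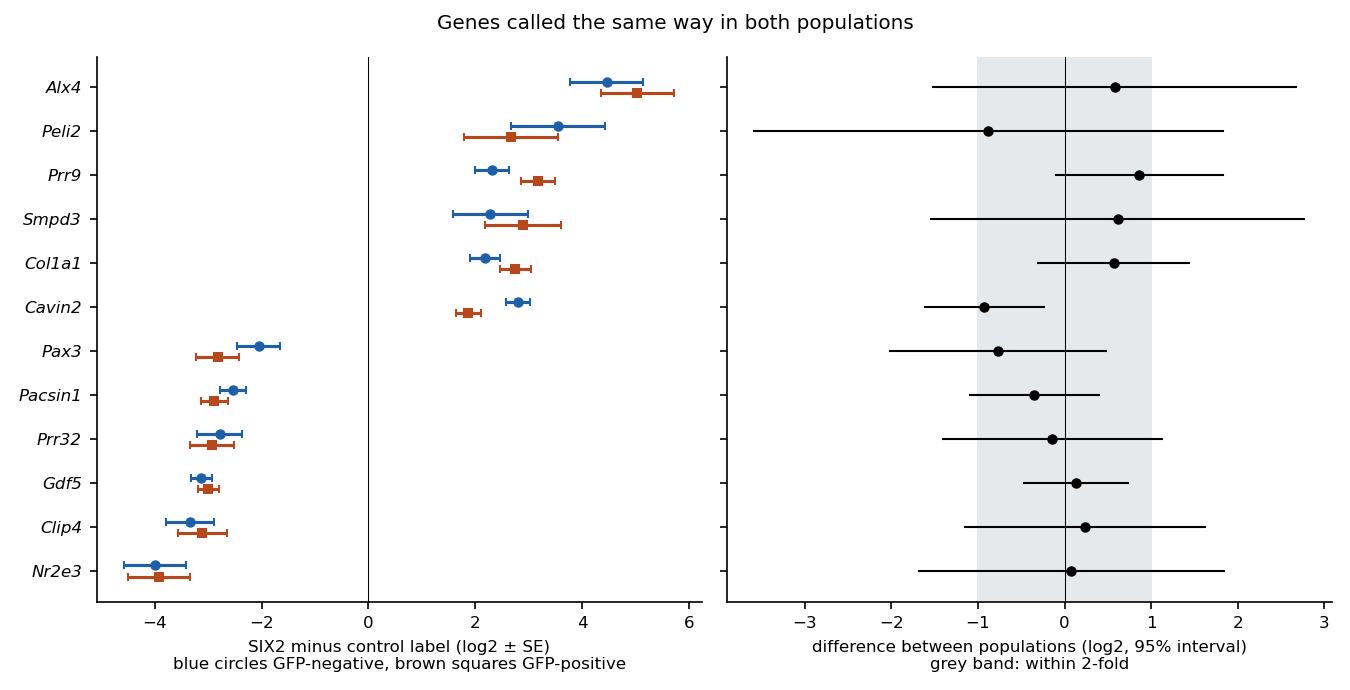
On the left, log2 changes with the SIX2 label (± SE) in GFP-negative (circles) and GFP-positive (squares) libraries are plotted for the 6 genes that rose and the 6 that fell most in both. On the right, the difference is shown with its 95% interval over a band of 2-fold; only the interval of Gdf5 lies wholly inside the band, and only that of Cavin2 leaves out 0.

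Of the myogenic regulatory factors, Myf5 had the clearest difference. It read 1420, 1755 and 1678 in GFP-negative control and 3472, 3997 and 4657 in GFP-negative SIX2 libraries, and 1684, 1843 and 1735 in GFP-positive control and 3221, 3153 and 2610 in the GFP-positive SIX2 libraries. The controls of both populations overlapped, while each GFP-negative SIX2 library lay above the GFP-positive SIX2 libraries. Myf5 rose by 1.32 ± 0.11 and 0.77 ± 0.11, a difference of -0.55 ± 0.16 with an adjusted p of 0.132 (limma-trend) that lay between 0.033 and 0.29 over the alternatives.

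Myod1 read 17502 and 15620 on average in GFP-negative and 17126 and 15675 in GFP-positive libraries, with a difference of 0.03 and an interval from -0.17 to 0.24. Myog fell in both populations, by 0.24 and 0.19, with a difference of 0.04 and an interval from -0.14 to 0.23. Pax7, the defining factor of muscle stem cells, rose by 0.58 and 0.79, with a difference of 0.21 and an interval from -0.41 to 0.83. The signs of the small differences of Myod1, Myog and Pax7 turned in some alternatives. Over 56 tested genes of myogenic differentiation, 43 fell among GFP-negative and 36 among GFP-positive libraries, beside 14.3% and 11.2% of all genes. Of their 56 intervals, 52 lay within 2-fold, beside 61.6% of those of all genes. At an unadjusted p under 0.05, 13 (23.2%) had a positive and 4 (7.14%) a negative difference. The shares of all genes were 8.77% and 7.94%, and the list's median was 0.13. With the trend on transcript GC content removed from each library, the counts were 9 and 5. The positive count was 8 without GFP-negative SIX2 library 3 and 8 without GFP-positive SIX2 library 3.

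Members of the differentiation list with the smallest p were Cav3, Atp2a1 and Sgca. Cav3, the muscle caveolin, fell by 0.39 in GFP-negative libraries and read 9010 and 8554 in GFP-positive ones, a difference of 0.32 ± 0.08. Sgca, the alpha subunit of sarcoglycan, fell by 0.45 in GFP-negative libraries and had a difference of 0.39 ± 0.11. Atp2a1, the calcium pump of the fast sarcoplasmic reticulum, rose by 0.48 in GFP-positive libraries and had a difference of 0.42 ± 0.12.

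Cell cycle genes moved together in both populations. All 35 G2 and mitosis genes rose among GFP-negative and all 35 among GFP-positive libraries, with median changes of 1.07 and 1.01. All 35 intervals of the difference lay within 2-fold, beside 61.6% of those of all genes. The 35 genes also had at least 50 counts in at least 3 libraries, a filter under which 8936 of 11709 genes had such an interval. The list's median difference was 0.01, with a sign that turned in 10 of 25 alternatives, and 1 gene, the kinesin Cenpe, had an unadjusted p under 0.05, with -0.47 ± 0.17. Of 37 S phase genes, 32 rose among GFP-negative and 33 among GFP-positive libraries, where 13.6% and 12.1% of all genes rose. At that level 6 (16.2%) had a positive and 1 (2.70%) a negative difference, against 8.77% and 7.94% of all genes. The S phase counts turned to 2 and 3 without GFP-positive control library 3, and were 2 and 0 without GFP-negative control library 1. Mcm2, a subunit of the replicative helicase, rose from 1554 to 2267 and from 1125 to 2434, with a difference of 0.57 ± 0.14, and the chromatin assembly factor Chaf1a had 0.74 ± 0.23. The inhibitor Cdkn1b, which encodes p27, rose by 0.48 in GFP-negative libraries and had a difference of -0.74 ± 0.18.

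Of 48 collagen and matrix genes, 6 had a positive and 0 a negative difference at an unadjusted p under 0.05 (median 0.14), and of 23 metalloproteinases and inhibitors 7 had a positive and 0 a negative one (median 0.31). The positive shares were 12.5% and 30.4%, against 8.77% of all genes, so that of the matrix list was near the background. The matrix count was 12 without GFP-negative control library 3 and 2 without GFP-negative control library 1, GFP-negative SIX2 library 3 or GFP-positive control library 3. The metalloproteinase count was 4 without GFP-negative control library 1. The small proteoglycan biglycan (Bgn) rose by 0.64 and 1.23, with a difference of 0.59 ± 0.17, and fibulin-2 (Fbln2) rose by 1.42 and 2.02, with 0.60 ± 0.23. The metalloproteinase gene Adam12 read 385 and 312 in GFP-negative and 179 and 292 in GFP-positive libraries, where it rose by 0.69, and its difference was 1.00 ± 0.22. Plau, the urokinase plasminogen activator, rose by 0.89 in GFP-positive libraries and had a difference of 1.28 ± 0.39. Timp2, an inhibitor of metalloproteinases, fell by 0.59 in GFP-negative libraries and had 0.38 ± 0.12. Both list medians stayed positive in all 25 alternatives.

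At an unadjusted p under 0.05, the RAS and FGF list had 10 positive (30.3%) and 4 negative (12.1%) differences among 33 genes. The shares of all genes were 8.77% and 7.94%, and the list's median was 0.24. Over 25 alternatives its counts lay between 7 and 12 and between 3 and 6. Besides Hras, the related GTPase Rras2 fell from 4617 to 2095 in GFP-negative libraries and read 2575 and 2093 in GFP-positive ones, with 0.84 ± 0.21. The feedback inhibitor Spry2 fell by 0.36 in GFP-positive libraries and had -0.60 ± 0.16. In the BMP, TGF-beta and activin list, 5 genes (12.8%) had a positive and 6 (15.4%) a negative difference among 39. This stood beside the same 8.77% and 7.94% of all genes. The negative count was 3 without GFP-negative SIX2 library 3 or GFP-positive SIX2 library 2. Inhbb, the activin beta B chain, read 148 ± 32.9 and 105 ± 21.7 in GFP-negative and 27.1 ± 2.46 and 93.3 ± 38.9 in GFP-positive libraries (SD, n = 3), with the GFP-positive control libraries below the other 9 and a difference of 2.16 ± 0.41. The repressor Skil had -0.51 ± 0.12.

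Among Wnt genes, the receptors Lrp5 and Fzd7 fell in GFP-negative libraries by 1.46 and 1.35 and had differences of 1.41 ± 0.37 and 1.19 ± 0.34. Among heparan sulfate proteoglycan genes, the glypican Gpc1 fell from 17234 to 5051 in GFP-negative libraries, against 6914 and 5746 in GFP-positive ones, with 1.50 ± 0.30, and it overlaps Ankmy1 on the opposite strand. The guidance receptor Ephb3 fell by 1.79 in GFP-negative libraries, with 1.51 ± 0.34, while Robo1 rose in both populations, by 1.43 and 0.60, with -0.83 ± 0.25. The medians of the Wnt, heparan sulfate and axon guidance lists were -0.14, 0.04 and -0.02, and each changed sign in at least 1 alternative.

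Ribosomal and respiratory chain genes had more negative than positive differences with all libraries in the fit, and their medians were small. Of 73 cytosolic ribosomal protein genes, 15 had a negative and 4 a positive difference at an unadjusted p under 0.05 (median -0.09), and of 55 nuclear genes of the respiratory chain 16 had a negative and 4 a positive one (median -0.11). The negative shares were 20.5% and 29.1%, against 7.94% of all genes. These counts depended on single libraries: without GFP-positive SIX2 library 2 they were 8 negative and 7 positive for ribosomal and 7 and 7 for respiratory chain genes. Without GFP-positive SIX2 library 1 the negative counts were 30 and 23, and without GFP-negative SIX2 library 3 they were 7 and 8, without GFP-positive control library 1 they were 8 and 8, and the ribosomal count was 9 without GFP-negative control library 3. Rps27 had -0.76 ± 0.19, and the ATP synthase subunit Atp5k read 811 and 909 in GFP-negative and 1380 and 860 in GFP-positive libraries, with -0.83 ± 0.22. Atp5b, the catalytic beta subunit of the ATP synthase, was among the positive ones, with 0.29 ± 0.07. Ribosomal protein genes have many processed copies in the genome, between which reads could be split.

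Glycolysis and hypoxia genes had 8 positive (27.6%) and 1 negative difference (3.45%) among 29 at an unadjusted p under 0.05. The shares of all genes were 8.77% and 7.94%, and the list's median was 0.14. Gapdh, a glycolytic dehydrogenase often used as a reference gene, read 173579, 154046 and 144700 in GFP-negative control and 109323, 105356 and 91315 in GFP-negative SIX2 libraries, but 134930, 129356 and 148918 in GFP-positive control and 146312, 129343 and 140601 in the GFP-positive SIX2 libraries. The GFP-negative SIX2 libraries of Gapdh were the lowest of the 12. Gapdh fell by 0.63 ± 0.08 there, and its difference was 0.64 ± 0.12. It overlaps Iffo1 on the opposite strand and has many pseudogene copies.

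Stress genes were divided. Of 20 heat shock genes, 7 had a negative and 2 a positive difference at an unadjusted p under 0.05, with Hspa1a, an inducible HSP70, at -0.92 ± 0.22 and the small chaperone Cryab at -0.31 ± 0.09. Of 25 immediate early genes, 6 had a negative and 1 a positive difference, among them the AP-1 subunits Fos (-1.11 ± 0.28), Jun (-0.42 ± 0.11) and Junb (-0.42 ± 0.10). The negative shares of these 2 lists were 35% and 24%, against 7.94% of all genes, and the heat shock count was 4 without GFP-negative SIX2 library 3. Jun and Junb fell in GFP-positive libraries and Fos rose in GFP-negative ones. Of 35 genes of the integrated stress and unfolded protein responses, 7 (20%) had a positive and 4 (11.4%) a negative difference. The shares of all genes were 8.77% and 7.94%, and the negative count lay between 2 and 6 with 1 library left out. Atf4, the central transcription factor of that response, rose by 0.37 in GFP-positive libraries and was at -0.04 in GFP-negative ones, and its difference was 0.41 ± 0.09.

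Positional identity genes gave 5 positive (10.9%) and 2 negative (4.35%) differences among 46, near the 8.77% and 7.94% of all genes. Without GFP-positive control library 1 the positive count was 1, and the sign of their median, -0.12, turned in 4 of 25 alternatives. Hoxc5 fell by 1.55 in GFP-negative libraries and had 1.23 ± 0.34, and overlaps Hoxc10 on the same strand. The T-box gene Tbx3 fell in both populations, by 0.82 and 1.38, with a difference of -0.56 ± 0.19. Enzymes of DNA and histone methylation gave 2 positive (6.90%) and 6 negative (20.7%) differences among 29, beside the 8.77% and 7.94% of all genes. Tet1, which oxidises methylcytosine, averaged 41.7 and 94.1 in GFP-negative and 73.0 and 52.1 in GFP-positive libraries, with -1.63 ± 0.38, and the H3K4 methyltransferase gene Kmt2d had -0.55 ± 0.13.

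**Figure D4:**
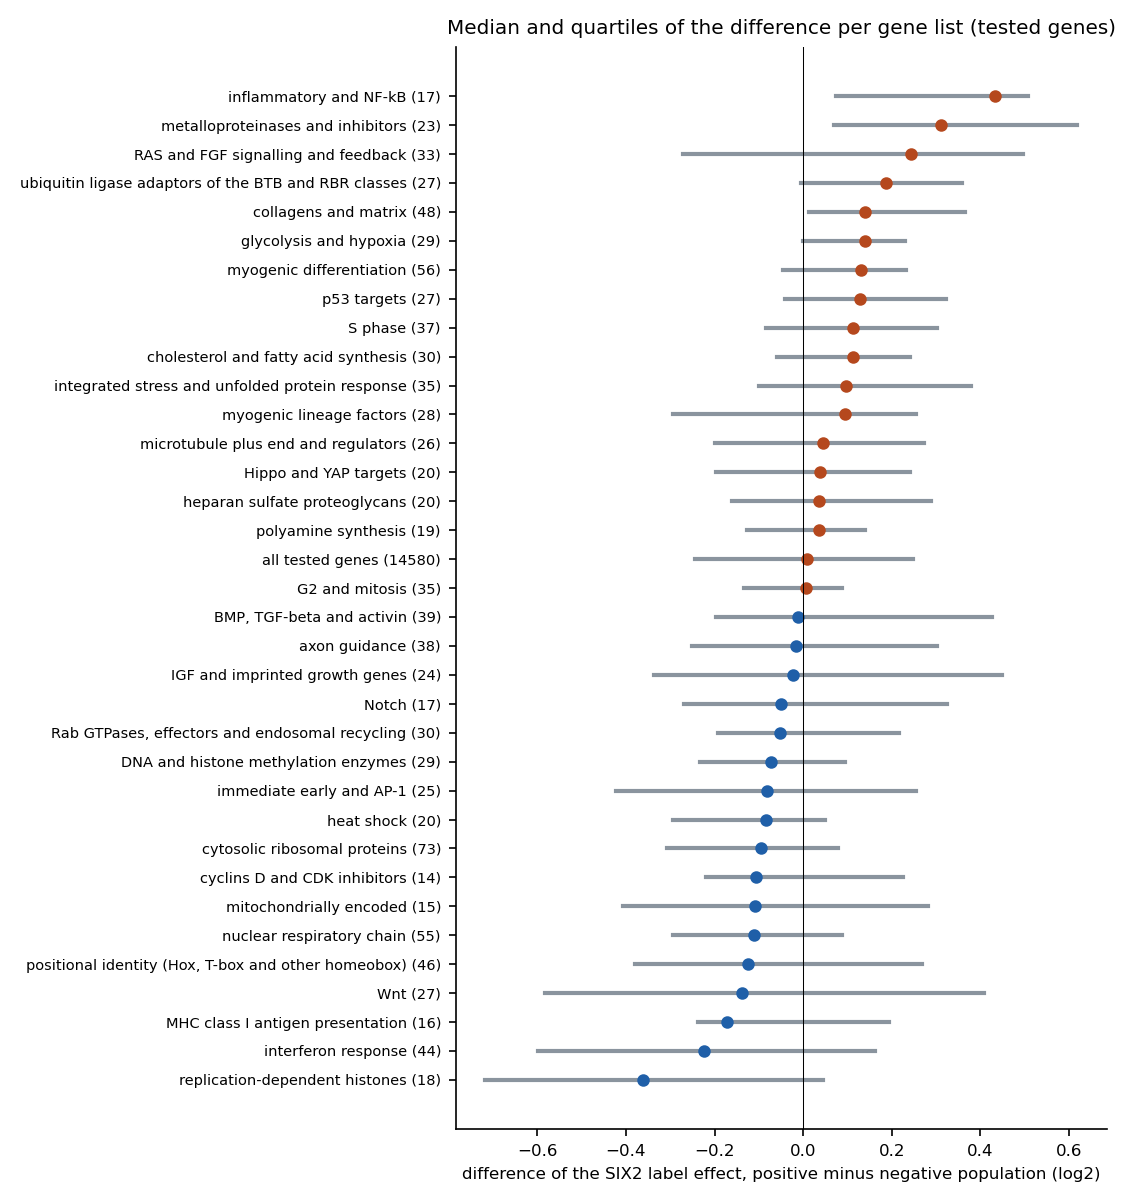
Medians (points) and quartiles (bars) of the difference, in log2 units, are plotted for each gene list with the number of tested members in brackets. The inflammatory (0.43) and metalloproteinase (0.31) lists lie farthest to the right and the replication-dependent histone (-0.36) and interferon (-0.22) lists farthest to the left, with all tested genes at 0.01. The histone value rests on low counts: with at least 50 counts required in at least 3 libraries, its median was -0.03 over 12 genes instead of 18. Under that filter the inflammatory median was 0.34 over 11 genes instead of 17, and the metalloproteinase median 0.16 over 21 instead of 23. The interferon median was -0.17 over 37 genes instead of 44.

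Each difference involves 4 group means, and the group farthest from the mean of the other 3 was noted for every gene. Among the 1279 positive differences at an unadjusted p under 0.05, it was GFP-negative control above the rest for 418 genes, GFP-negative SIX2 below for 404, GFP-positive control below for 321 and GFP-positive SIX2 above for 136. Among the 1158 negative ones, it was GFP-positive control above the rest for 420 genes, GFP-negative control below for 336, GFP-negative SIX2 above for 267 and GFP-positive SIX2 below for 135. Of the 2437 genes, GFP-negative control made up 17.2% above and 13.8% below, against 12.1% and 11.6% of all genes. GFP-negative SIX2 made up 11.0% above and 16.6% below, against 13.9% and 15.3%. For GFP-positive control the shares were 17.2% above and 13.2% below, against 15.5% and 15.7%. Most of these shares were thus near those of all genes. The GFP-positive SIX2 group was thus the least frequent in both directions, with 5.58% and 5.54% of the 2437 genes, as it was among all genes (8.01% and 7.97%). Examples of it were Maf1, a repressor of RNA polymerase III, at 2030, 1935, 1889 and 2311 in GFP-negative control, GFP-negative SIX2, GFP-positive control and GFP-positive SIX2 libraries, and the ubiquitin ligase gene Rnf128, at 749, 408, 889 and 288. Jarid2, a partner of the Polycomb complex PRC2, stood apart by a low GFP-negative control mean (276, against 336 to 428).

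The base composition of the transcripts moved with the difference. In 5 equal bins of the tested genes ordered by the GC content of their longest transcript, the median difference went from -0.14 through -0.04, 0.00 and 0.09 to 0.15. Positive differences at an unadjusted p under 0.05 made up 3.91% of the bin with the lowest GC content and 14.8% of the highest, and negative ones 14.1% and 3.81%. Spearman's rho between GC content and the difference across 14571 genes was 0.254 (Pearson's r = 0.194), and it was -0.231 for the change in GFP-negative and -0.0137 for that in GFP-positive libraries. These genes share the same 12 libraries and are not independent. Of the 12 genes with the smallest p, 6 with a positive difference lay in the highest GC bin and 0 in the lowest, against 1 and 7 of those with a negative one.

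By library, the median deviation of the highest GC bin minus that of the lowest was 0.188, 0.0796 and 0.0768 for GFP-negative control and -0.0946, -0.132 and -0.242 for GFP-negative SIX2 libraries, which did not overlap. It lay between -0.0424 and 0.0706 for GFP-positive control and between -0.108 and 0.127 for GFP-positive SIX2 libraries, which did. With the trend on transcript GC content removed from each library, the difference of Odc1 was 1.44, that of Hras 1.36, that of Ifit1 -1.98 and that of Myf5 -0.42, and no gene passed. With the trend on the highest-GC window of each transcript removed, 3 genes passed, Bri3, Btbd1 and Odc1. Whether base composition contributed to any single difference was not tested further.

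For the named genes Hipk1, Ncoa1, Nfkb2, Tapbp, Chaf1a, Hspa1a, Cryab, Jun, Junb, Atp2a1 and Tbx3, another gene is annotated on the opposite strand, so the reads of each pair cannot be told apart.

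Transcripts of uncertain coding status followed the same direction. The 458 tested genes of the annotation class TEC (models still awaiting experimental evidence) had a median change of 0.52 among GFP-negative and -0.17 among GFP-positive libraries and a median difference of -0.71. Antisense transcripts, 333 in number, had a median difference of -0.27, and the 12782 protein-coding genes 0.02. TEC genes took 0.0665% to 0.0739% of reads in GFP-negative control, 0.0933% to 0.115% in GFP-negative SIX2, 0.0896% to 0.114% in GFP-positive control and 0.0748% to 0.0908% in the GFP-positive SIX2 libraries. The ranges of control and SIX2 libraries overlapped in GFP-positive and not in GFP-negative cells. Of 5 equal bins of all tested genes ordered by mean level, the lowest also had a negative median difference, -0.19. Its median changes were 0.16 among GFP-negative and 0.00 among GFP-positive libraries. The part of low levels, depth, RNA quality or unspliced RNA in these values was not tested.

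**Figure D5:**
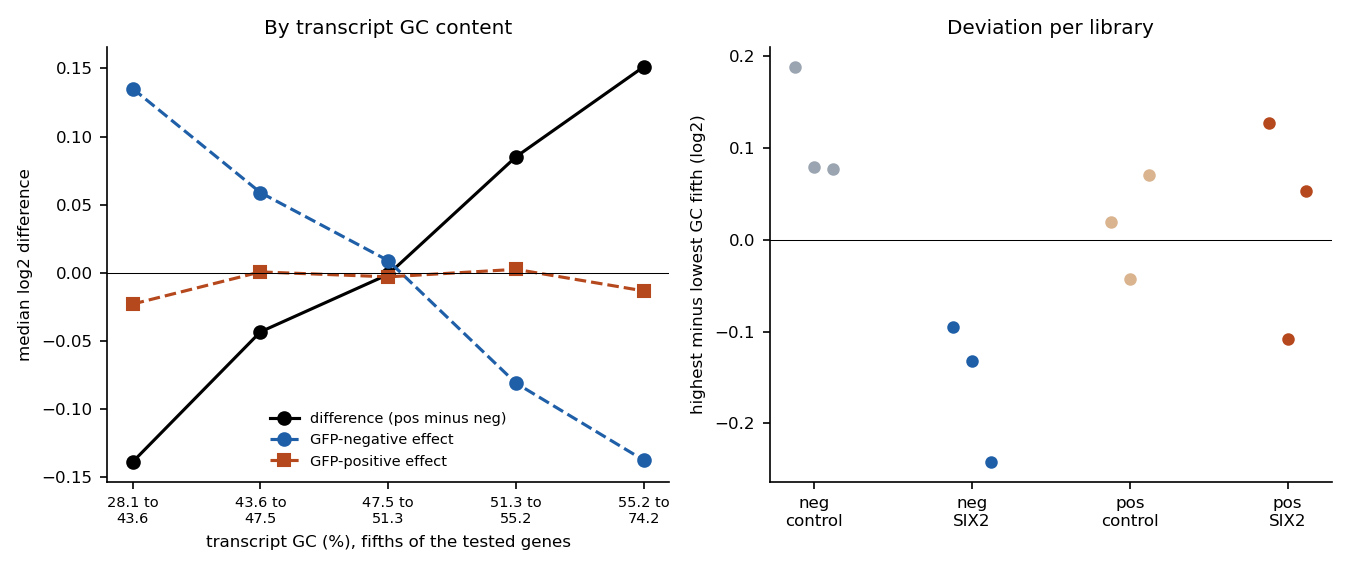
On the left, median log2 values of the difference and of the SIX2 label change in each population are plotted by bin of transcript GC content, from low to high; the difference runs from -0.14 to 0.15 while the GFP-positive change stays near 0. On the right, the deviation of the highest minus the lowest GC bin is plotted for each library, with GFP-negative control libraries above 0 and GFP-negative SIX2 libraries below 0.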

How the data were processed

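The authors deposited normalized counts per gene, a signal on a linear scale obtained by dividing each library by a size factor, for SMART-Seq2 libraries fragmented with Tn5, per the labels' protocols. No settings are given for the tools, which per the submitters' processing notes included STAR 2.7.11a, RSEM 1.3.3 and DESeq2 1.42.0, with the build GRCm38. Dividing each column by its value per read gave whole reads for 100% of values (tolerance 1e-04), from 12438885 to 47299937 per library.

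Values of 10 or more in 3 or more libraries were required of a gene. The model was limma-trend, run in R 4.3.3 with limma 3.58.1 and fitted to log2(normalized count + 1), which understates changes of low genes. All 12 libraries entered with 4 group means. Tests were two-sided, with Benjamini-Hochberg adjustment over all 14580 genes, a threshold of 0.05 and 95% moderated intervals. The fit was tested on simulated data. Positions and transcript GC content came from GENCODE vM21, which matched 99.8% of identifiers, and promoters from RefSeq.

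Named genes were 6 fixed regulators, the 12 smallest p in each direction among named genes with a group mean of at least 50, all genes called in opposite directions, up to 3 members per list, the 6 largest rises and falls shared by both populations, and up to 3 genes per group that stood apart. Others are marked as chosen after their values were seen. Members and lists were chosen with earlier results of these data known. Alternatives were other pseudocounts, filters and scalings, edgeR 4.0.16, DESeq2 1.42.0, library weights, thinning to the smallest library, removal of GC trends, a replicate block and leaving out each library.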

Additional observations from a re-analysis of the deposited data

How the results depend on the processing

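Of the results with a test, the count of 0 differences became 558 with DESeq2, 282 with library weights and 3 with the trend of the highest-GC window removed, and ranged from 0 to 171 with 1 library left out. The calls in opposite directions, 10, became 18 with quantile scaling, 28 with library weights and 19 with DESeq2, and ranged from 4 to 26. Calls in GFP-negative libraries, 4075, became 6142 with library weights. The cause was not tested. With the replicate number as a block, 0 differences passed (smallest adjusted p = 0.129), with 3740, 3153 and 10 calls in GFP-negative, GFP-positive and opposite directions and 8877 intervals within 2-fold. Same-numbered libraries of different groups deviated from their group means with correlations between -0.203 and 0.053. The labels do not say what the number marks. A weak shared effect could give such values as well, so they cannot show whether the libraries were paired.

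Of the 90 named genes, 79 kept the direction of their difference in every alternative run, and 66 passed the threshold in at least 1. Of all 14580 genes, 282 passed with library weights and 558 with DESeq2. Most of the 90 were named by their values in the same libraries, so high counts were built in and are not independent support. With quantile scaling the sign turned for Myod1 (-0.00735) and Myog (-0.0459). With library weights the sign turned for Myod1 (-0.0661), Myog (-0.00888) and Smpd3 (-0.38). With thinning to the smallest library the sign turned for Myod1 (-0.0213) and Nr2e3 (-0.768). With the transcript GC trend removed the sign turned for Myod1 (-0.112), Myog (-0.0577) and Nr2e3 (-0.00989). With edgeR the sign turned for Peli2 (0.0484) and Nr2e3 (-0.224). With DESeq2 the sign turned for Peli2 (0.0175) and Nr2e3 (-0.206). With pseudocount 10 the sign turned for Nr2e3 (-0.3005). With the highest-GC window trend removed the sign turned for Prr32 (0.0704). With 1 library left out, the difference ranged from -0.0189 to 1.11 for Six2, from -0.0121 to 0.404 for Pax7, from -0.0300 to 0.0908 for Myod1, from -0.00327 to 0.0874 for Myog, from -0.171 to 1.17 for Smpd3, from -1.97 to 0.245 for Peli2, from -0.143 to 1.498 for Alx4, from -0.389 to 0.793 for Nr2e3, from -0.181 to 0.699 for Clip4, from -0.126 to 0.332 for Gdf5 and from -0.604 to 0.218 for Prr32.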
